A study of Mus musculus with 6 samples.

Results

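Mouse eosinophils given IL-33 for 4 h were set against eosinophils given IL-4 for 4 h, gene by gene, to find which genes responded to one cytokine and which to both. Eosinophils are granulocytes known from allergy and from infections with worms. They were cultured for 14 days from the low-density bone marrow cells of wild-type BALB/c mice aged 4 to 8 weeks. Every group, the untreated cells included, had grown with stem cell factor and FLT3 ligand (100 ng/ml each) until day 4 and with 10 ng/ml of IL-5 after that. The groups used were IL-33 at 10 ng/ml for 4 h, IL-4 at 10 ng/ml for 4 h and untreated cells of 4 h, and the same groups at 1 h served as a second time. Each group had 1 library, the sources used here do not say how many mice stood behind it, and so the size of replicate error is unknown and no p-value is given.

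RNA levels were in FPKM, fragment counts scaled so as to allow for transcript length and library size. Each cytokine had a table of its own that also held the untreated library of the same time. A change is log2 of (treated FPKM + 1) over (untreated FPKM + 1) within 1 table, a scale that understates changes of low genes. The difference between the cytokines is the IL-33 change minus the IL-4 change. Of 22548 gene symbols, 10986 reached 1 FPKM in at least 1 of the 3 libraries of 4 h and were compared. At that limit Slc12a5 stood just inside at 1.00 FPKM and Arl6 just outside at 0.999 FPKM. A gene was called higher or lower at a log2 value of at least 1 in size. A gene higher with IL-33 only was called with IL-33, not called with IL-4, and differed between the cytokines by at least 1, and the classes for IL-4 and for lower genes were made the same way. Small RNA genes, whose short transcripts give unsteady FPKM, are left out of the class counts below, which leaves 10830 genes.

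IL-33 belongs to the IL-1 family. It binds ST2, the product of Il1rl1, and signals through the adaptor MyD88 and IRAK kinases to NF-kB and MAP kinases. NF-kB drives genes of cytokines, chemokines and survival factors, and also genes of its own inhibitors. IL-4 binds a receptor containing IL-4R-alpha, the product of Il4ra, and JAK kinases then phosphorylate STAT6. STAT6 drives genes of alternative activation in macrophages, such as Arg1, Retnla and Mrc1, and Socs1, whose product inhibits JAK kinases.

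The start regions of 5 genes higher with one or both cytokines are shown because NF-kB and STAT6 read different DNA motifs. Each sequence runs 5′ to 3′ from 250 bases before to 50 bases after the start site, from RefSeq on build GRCm38.p6. Capitals mark a match to the NF-kB consensus in Cxcl2 and Il6 and to TTC and GAA spaced by 4 bases of any kind, the spacing STAT6 prefers, in Retnla. Cxcl2 lies at chr5:90903649-90903948 on the plus strand, Il6 at chr5:30012864-30013163 plus, Retnla at chr16:48842359-48842658 plus, Socs1 at chr16:10785487-10785786 minus and Pet117 at chr2:144368733-144369032 plus. The promoters of Socs1 and Pet117, both higher with both cytokines, hold no match to any of the motifs searched. Pet117 was not in that class when measured against the untreated library of 1 h, with changes of 0.72 with IL-33 and 0.58 with IL-4.
Cxcl2: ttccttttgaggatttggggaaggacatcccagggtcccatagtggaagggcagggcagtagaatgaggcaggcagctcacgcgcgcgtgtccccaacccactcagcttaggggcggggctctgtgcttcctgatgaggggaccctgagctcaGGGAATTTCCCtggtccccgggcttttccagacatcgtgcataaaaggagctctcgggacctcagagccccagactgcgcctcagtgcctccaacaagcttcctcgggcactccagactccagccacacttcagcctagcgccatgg
Il6: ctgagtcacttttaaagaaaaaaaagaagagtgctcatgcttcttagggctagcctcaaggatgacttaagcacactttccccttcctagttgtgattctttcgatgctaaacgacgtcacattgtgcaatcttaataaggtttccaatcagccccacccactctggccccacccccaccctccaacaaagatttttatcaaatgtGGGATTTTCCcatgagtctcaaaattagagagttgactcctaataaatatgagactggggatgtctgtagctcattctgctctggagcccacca
Retnla: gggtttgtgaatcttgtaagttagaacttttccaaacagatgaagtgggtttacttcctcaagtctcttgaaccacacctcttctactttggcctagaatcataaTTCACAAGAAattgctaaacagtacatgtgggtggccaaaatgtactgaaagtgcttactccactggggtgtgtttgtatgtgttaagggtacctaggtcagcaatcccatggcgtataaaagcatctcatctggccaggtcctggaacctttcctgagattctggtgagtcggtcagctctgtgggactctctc
Socs1: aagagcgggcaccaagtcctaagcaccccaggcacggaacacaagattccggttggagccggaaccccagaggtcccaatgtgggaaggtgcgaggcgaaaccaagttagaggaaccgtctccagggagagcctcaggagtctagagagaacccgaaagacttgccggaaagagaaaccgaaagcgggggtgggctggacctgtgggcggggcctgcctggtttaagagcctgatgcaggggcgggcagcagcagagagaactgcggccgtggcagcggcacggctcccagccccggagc
Pet117: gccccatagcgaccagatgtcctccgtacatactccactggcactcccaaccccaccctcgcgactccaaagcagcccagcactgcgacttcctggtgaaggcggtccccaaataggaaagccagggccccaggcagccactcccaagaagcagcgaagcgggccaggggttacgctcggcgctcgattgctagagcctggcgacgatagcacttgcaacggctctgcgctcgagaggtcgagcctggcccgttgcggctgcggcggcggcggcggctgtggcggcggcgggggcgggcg
In Cxcl2 the capitals join matches that overlap, the first starting 97 bases before the start site. The match in Il6 starts 44 bases before it and that in Retnla 145 bases before it.

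The libraries carried eosinophil transcripts. Prg2, the granule major basic protein, had 41838 FPKM with IL-33 against 44745 untreated, and 52228 FPKM with IL-4 against 47233 untreated. The 34 eosinophil markers measured summed to 73257 FPKM with IL-33 against 78087 untreated, and to 90943 FPKM with IL-4 against 82430 untreated. Of the 33 compared, 1 was higher by the difference, Cebpb, and 1 lower, Ltc4s, against 3.31% and 0.831% of all genes. Markers of other blood cells were present too. The summed level of 23 neutrophil markers was 7545 FPKM with IL-33 against 9783 untreated, and 10307 FPKM with IL-4 against 10327 untreated. The 31 markers of monocytes, macrophages and dendritic cells measured, 25 of which were compared, summed to 3987 FPKM with IL-33 against 3447 untreated. With IL-4 they summed to 3484 FPKM against 3638 untreated. Marco, a marker of some macrophages, is listed at 0 in all 3 libraries, as are the mast cell protease genes Mcpt1 and Mcpt4. Other mast cell and basophil markers were present, and the 17 measured summed to 432 FPKM with IL-33 against 403 untreated, and 431 with IL-4 against 426 untreated. Among them Mcpt8 had 55.4 FPKM with IL-33 against 87.0 untreated, and 91.1 with IL-4 against 91.9 untreated. Hdc had 181 FPKM with IL-33 against 96.8 untreated, and 111 with IL-4 against 102 untreated. Fewer cells of a type and less RNA per cell cannot be told apart in such libraries. The IL-33 table lists the untreated library at 0.947 times the values of the IL-4 table, so beside each cytokine stands the untreated value of its own table, unless the text names another. From the commonest ratio among low values, the IL-33 library was 1.52 times as deep as the IL-4 library.

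IL-33 moved many more genes than IL-4 at 4 h. With IL-33, 396 genes were higher (3.66% of those compared) and 115 lower (1.06%). With IL-4, 32 were higher (0.295%) and 2 lower (0.0185%). Genes higher with IL-33 only numbered 333 (3.07%), genes higher with both 21 (0.194%), and genes higher with IL-4 only 2 (0.0185%), Retnla and Lipg. Genes lower with IL-33 only numbered 72 (0.665%), and those lower with both 1 (0.00923%). Among the 32 genes higher with IL-4, 21 or 65.6% were also higher with IL-33, while these were 5.3% of the 396 genes higher with IL-33. Of the 32 genes, 19 were also higher with IL-4 when measured against the untreated library of 1 h. The IL-33 and IL-4 changes are measured against the same untreated library, so a low or high value there moves them together.

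**Figure D1:**
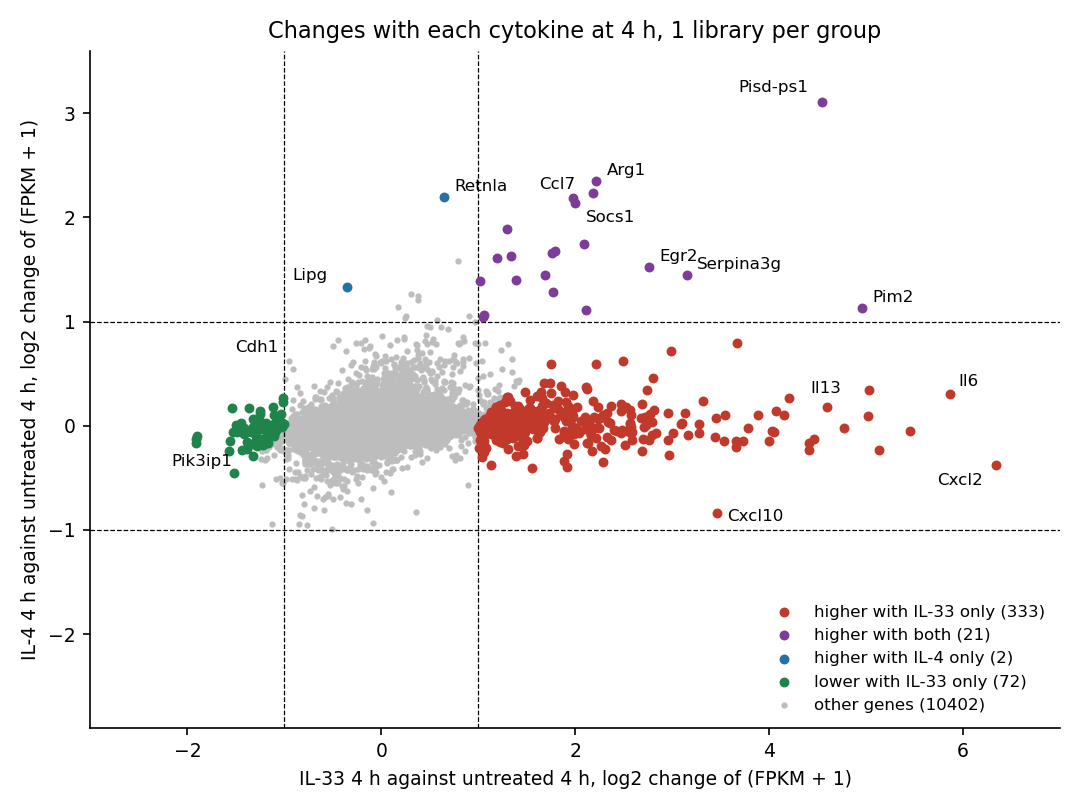
Each point is a gene, with its log2 change with IL-33 on the horizontal axis and with IL-4 on the vertical axis, coloured by class, and with dashed lines at a change of 1 in size. The 333 genes higher with IL-33 only lie along the horizontal axis with a median IL-4 change of 0.02, and 21 genes stand in the upper right field. Of the other genes, 2 lie outside the plotted range.

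The spread of all genes differed in the same way. Over 8110 longer genes of at least 5 FPKM, the central 95% of changes ran from -0.81 to 1.43 with IL-33 and from -0.22 to 0.29 with IL-4. The 333 genes higher with IL-33 only had a median change of 1.61 with IL-33, and their IL-4 changes ran from -0.84 to 0.79, with 327 of them within 0.5 of 0. The difference was at least 2 for 108 of them, at least 3 for 37 and at least 4 for 16. Just at the limit of 1, St3gal1 stood inside at 1.00 and Slc29a2 outside at 0.99.

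Cytokine genes were among the widest gaps. Il6, which encodes a fever and acute-phase cytokine, had 336 FPKM with IL-33 against 4.75 untreated, and 6.44 FPKM with IL-4 against 5.01 untreated, a difference of 5.57. Il1b had 243 FPKM with IL-33 against 5.95 untreated, and 5.20 with IL-4 against 6.29 untreated, a difference of 5.37. Tnf had 177 FPKM with IL-33 against 7.35 untreated, and 6.47 with IL-4 against 7.76 untreated, a difference of 4.64. In all 3 genes the IL-4 library lay close to the untreated one and the IL-33 library far above both. Il13, which encodes the type 2 cytokine that shares a receptor chain with IL-4, had 46.8 FPKM with IL-33 against 0.971 untreated, and 1.29 with IL-4 against 1.02 untreated, a difference of 4.42. Il1rn, the antagonist of the IL-1 receptor, reached 1275 FPKM with IL-33 against 213 untreated, and 242 with IL-4 against 225 untreated. Csf2, which encodes the eosinophil survival factor GM-CSF, had 3.30 FPKM with IL-33, had 0.0623 FPKM with IL-4 and is listed at 0 untreated. Of 34 cytokine and growth factor genes compared, 10 were higher by the difference and 0 lower, with a median difference of 0.35. Over all genes 3.31% were higher by the difference and 0.831% lower, or 3.66% and 1.07% with small RNA genes kept, and the median was -0.06.

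The chemokine genes fell into different classes. Cxcl2, a neutrophil attractant, had the largest difference of the named genes, 6.71, with 516 FPKM with IL-33 against 5.39 untreated, and 4.17 with IL-4 against 5.69 untreated. Cxcl3, its close relative, had 282 FPKM with IL-33 against 9.32 untreated, and 9.64 with IL-4 against 9.84 untreated. Ccl3, an attractant of monocytes and lymphocytes, reached 2827 FPKM with IL-33 against 158 untreated, and 179 with IL-4 against 166 untreated. These genes rose with IL-33 and lay near the untreated level with IL-4. Ccl2 and Ccl7, neighbouring genes for monocyte attractants, rose with both cytokines. Ccl7 had 120 FPKM with IL-33 against 25.4 untreated, and 130 FPKM with IL-4 against 26.9 untreated, changes of 2.19 and 2.23. Ccl2 had 31.7 FPKM with IL-33 against 6.67 untreated, and 25.9 with IL-4 against 7.04 untreated, changes of 2.09 and 1.74. Cxcl10, an interferon-inducible attractant of T cells, stood at 27.9 FPKM with IL-33 against 1.63 untreated, and at 0.521 FPKM with IL-4 against 1.72 untreated, the lowest IL-4 change of the genes higher with IL-33 only. Of 23 chemokine genes compared, 14 were higher with IL-33 and 2 with IL-4, against 3.66% and 0.295% of all genes. By the difference 10 of the 23 were higher and 0 lower, against 3.31% and 0.831% of all genes, with a median of 0.89. At the latter share 0 lower would be met in most lists of this size.

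**Figure D2:**
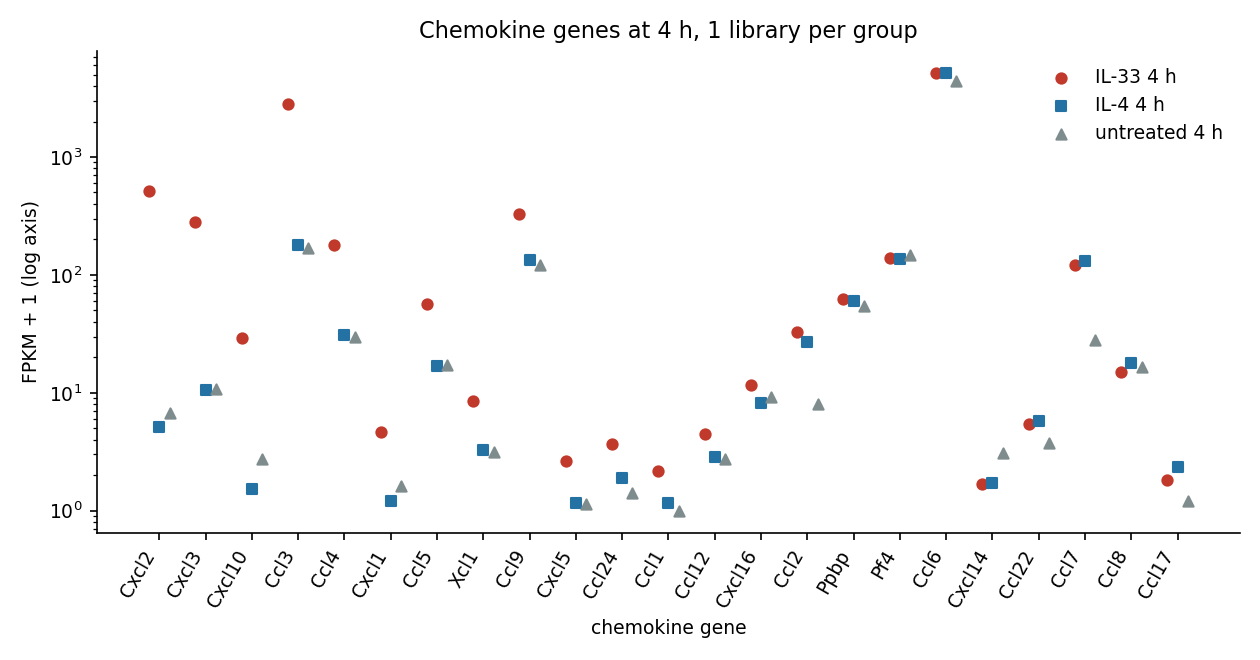
FPKM + 1 on a log axis for the 23 chemokine genes compared, with circles for IL-33, squares for IL-4 and triangles for the untreated library of 4 h (as the IL-4 table gives it), ordered by the difference between the cytokines. On the left the circles stand apart from the squares and triangles, as for Cxcl2 (516 FPKM in the IL-33 library, 4.17 in the IL-4 library), while for Ccl7 circle and square lie together (120 and 130 FPKM) above the untreated library.

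NF-kB target genes as a list moved with IL-33. Of 56 compared, 44 were higher with IL-33 and 1 with IL-4, against 3.66% and 0.295% of all genes. By the difference 43 were higher and 0 lower, against 3.31% and 0.831%, with a median of 2.37. This list was chosen with earlier results of these data known. The exception with IL-4 was Sdc4, a cell surface proteoglycan, with 24.6 FPKM with IL-33 against 8.78 untreated, and 26.1 with IL-4 against 9.27 untreated. Ptgs2, the inducible cyclooxygenase, had 45.4 FPKM with IL-33 against 0.432 untreated, and 0.550 with IL-4 against 0.456 untreated. Irg1, the enzyme that makes itaconate, had 155 FPKM with IL-33 against 6.07 untreated, and 5.76 with IL-4 against 6.41 untreated. Genes of regulators of the pathway were in the same class. Nfkbiz, a nuclear regulator of NF-kB targets, had 57.3 FPKM with IL-33 against 2.65 untreated, and 2.43 with IL-4 against 2.79 untreated. Zc3h12a, a ribonuclease that degrades cytokine mRNA, and Tnfaip3, the ubiquitin-editing enzyme A20, differed by 3.37 and 2.91. Irak3, a kinase-dead member of the IRAK family that dampens MyD88 signalling, had 194 FPKM with IL-33 against 28.7 untreated, and 32.1 with IL-4 against 30.3 untreated. Of 26 genes of ubiquitin and mRNA-decay brakes, 9 were higher by the difference and 1 lower, against 3.31% and 0.831% of all genes. The lower one was Rnf125, a ubiquitin ligase, at 15.9 FPKM with IL-33 against 37.7 untreated, and 38.5 with IL-4 against 39.8 untreated.

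Other genes of the class were surface receptors, enzymes and survival genes. Smpdl3b, which encodes a lipid-modulating phosphodiesterase of the cell surface, had 83.0 FPKM with IL-33 against 0.918 untreated, and 0.900 with IL-4 against 0.969 untreated, a difference of 5.50. Peg10, a gene derived from a retrotransposon, had 151 FPKM with IL-33 against 3.65 untreated, and 5.14 with IL-4 against 3.85 untreated. Clec4e, the lectin receptor Mincle, had 434 FPKM with IL-33 against 19.4 untreated, and 18.2 with IL-4 against 20.5 untreated. All 3 genes stood near the untreated level with IL-4. Cd69, an early activation marker, and Tnfrsf9, the costimulatory receptor 4-1BB, differed by 4.11 and 4.08. Among 34 lectin, scavenger and Toll-like receptor genes, 11 were higher by the difference and 0 lower, and among 51 adhesion and activation surface genes 17 were higher and 1 lower. Of 38 apoptosis and survival genes, 13 were higher by the difference and 0 lower, including the Bcl2a1 genes, near-identical copies between which reads can be split. Fas, the death receptor, rose in the same list, with 144 FPKM with IL-33 against 15.2 untreated, and 15.03 with IL-4 against 16.1 untreated. Of the 25 markers of monocytes, macrophages and dendritic cells 4 were higher by the difference, Cd14 by 2.21, Vcam1 by 2.33, Csf1r by 1.14 and Batf3 by 1.00, and 0 lower. Of the 23 neutrophil markers 3 were higher, Fpr1, Fpr2 and Trem1, and 0 lower, with a median difference of -0.46. Over all genes the shares by the difference were 3.31% higher and 0.831% lower. The part of other cell types in these results was not tested.

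The 21 genes higher with both had median changes of 1.80 with IL-33 and 1.61 with IL-4. The difference lay within 0.5 of 0 for 15 of them, reached 1 for 5 and was under -0.5 for 1. Arg1, the arginase that splits arginine into ornithine and urea, had 9.43 FPKM with IL-33 against 1.24 untreated, and 10.8 with IL-4 against 1.31 untreated. Slc7a2, a transporter that brings arginine into cells, had 7.59 FPKM with IL-33 against 2.40 untreated, and 9.95 with IL-4 against 2.53 untreated. Smox, the spermine oxidase of the same list of 24 arginine and polyamine genes, rose with IL-33 only, with 31.5 FPKM with IL-33 against 7.66 untreated, and 8.37 with IL-4 against 8.09 untreated. In that list 3 genes were higher with IL-33 and 2 with IL-4, against 3.66% and 0.295% of all genes. By the difference 1 of the 24 was higher and 0 lower, near the shares of 3.31% and 0.831% over all genes, with a median of 0.02. Socs1 had 18.6 FPKM with IL-33 against 3.89 untreated, and 21.5 with IL-4 against 4.11 untreated, changes of 2.00 and 2.14. Of the related genes, Socs3 and Cish were called higher with IL-33 only at 4 h. Socs3 had 11.3 FPKM with IL-33 against 1.37 untreated, and 1.80 with IL-4 against 1.45 untreated, and Cish had 67.7 FPKM with IL-33 against 11.2 untreated, and 18.7 with IL-4 against 11.8 untreated. At 1 h Cish was called higher with both, with 101 FPKM with IL-33 against 9.48 untreated, and 25.7 with IL-4 against 10.03 untreated.

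Tcfec, also higher with both and of the MiT family of transcription factors, had 5.80 FPKM with IL-33 against 1.00 untreated, and 5.51 with IL-4 against 1.06 untreated. Dab2, a clathrin adaptor, had 17.6 FPKM with IL-33 against 7.12 untreated, and 25.02 with IL-4 against 7.51 untreated. Mrc1, the macrophage mannose receptor, had 10.8 FPKM with IL-33 against 4.85 untreated, and 15.1 with IL-4 against 5.12 untreated. Both Dab2 and Mrc1 were somewhat higher with IL-4 than with IL-33, by less than the limit of 1. The genes of this class that differed by at least 1 were all higher with IL-33. Pim2, a serine kinase of cytokine-driven survival, had 165 FPKM with IL-33 against 4.33 untreated, and 11.2 with IL-4 against 4.58 untreated, changes of 4.96 and 1.13. Serpina3g, a serpin, had 27.9 FPKM with IL-33 against 2.26 untreated, and 8.19 with IL-4 against 2.38 untreated. Egr2, an early growth response factor, had 25.1 FPKM with IL-33 against 2.84 untreated, and 10.5 with IL-4 against 3.00 untreated, and Batf3, a factor of dendritic cell development, differed by 1.00. The remaining one was the pseudogene Pisd-ps1.

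How many genes were called higher with both rested in part on the untreated library. Against the untreated library of 1 h, 13 of the 21 were higher with both, namely Arg1, Ccl2, Ccl7, Dab2, Fchsd2, Hbegf, Myc, Pim2, Sdc4, Slc7a2, Socs1, Tcfec and Tmem26. The other 8 left the class: Batf3 and Serpina3g were then higher with IL-33 only, Mrc1 had an IL-33 change of 0.79, and Egr2, Pet117, Pgf, Tgtp1 and Pisd-ps1 were not higher with either. Egr2, for example, stood at 3.00 FPKM in the untreated library of 4 h and at 13.1 in that of 1 h.

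The genes that favoured IL-4 were few. Retnla, the gene of RELM-alpha, a secreted protein (mm9 chromosome 16, 48842665 to 48844574), had 13.4 FPKM with IL-33 against 8.18 untreated, and 43.1 FPKM with IL-4 against 8.64 untreated. Its changes were 0.65 with IL-33 and 2.20 with IL-4, a difference of -1.55. Lipg, endothelial lipase (mm9 chromosome 18, 75098976 to 75120917), had 1.15 FPKM with IL-33 against 1.75 untreated, and 6.18 with IL-4 against 1.84 untreated, a difference of -1.69. Against the untreated library of 1 h, Retnla was higher with IL-4 only again, with an IL-4 change of 1.91, and Lipg had 0.72 with IL-4 and -0.96 with IL-33. A further 9 genes were higher with IL-4 and not with IL-33 but differed by under 1. Among them Gimap3, a GTPase of lymphocyte survival, had 7.84 FPKM with IL-33 against 4.10 untreated, and 14.95 with IL-4 against 4.33 untreated. Il6st, the shared receptor chain gp130, had 5.55 FPKM with IL-33 against 2.49 untreated, and 6.52 with IL-4 against 2.63 untreated, a difference of -0.14. Against the untreated library of 1 h, Gimap3 and Il6st were higher with both cytokines, with changes of 1.03 and 1.38 with IL-33 and of 1.81 and 1.53 with IL-4. Of the others, Mgl2, a lectin receptor of macrophages, and Ppm1j, a protein phosphatase, kept their class, and 5 were not higher with either. Of the 32 genes higher with IL-4 against the untreated library of 4 h, 31 had an IL-33 change above 0 and 25 one of at least 0.5, and Lipg was the exception below 0. The median IL-33 change over all genes compared was -0.03. Both changes share that untreated library, so a low value in it raises both. Against the untreated library of 1 h, the IL-33 changes of 1810021B22Rik (-0.68), 2010204K13Rik (-0.36) and Gzma (-0.26) were below 0 as well. Chi3l3 stood just outside the limit for genes lower by the difference, at -0.9999, with 22.9 FPKM with IL-33 against 26.6 untreated, and 49.3 with IL-4 against 28.1 untreated.

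**Figure D3:**
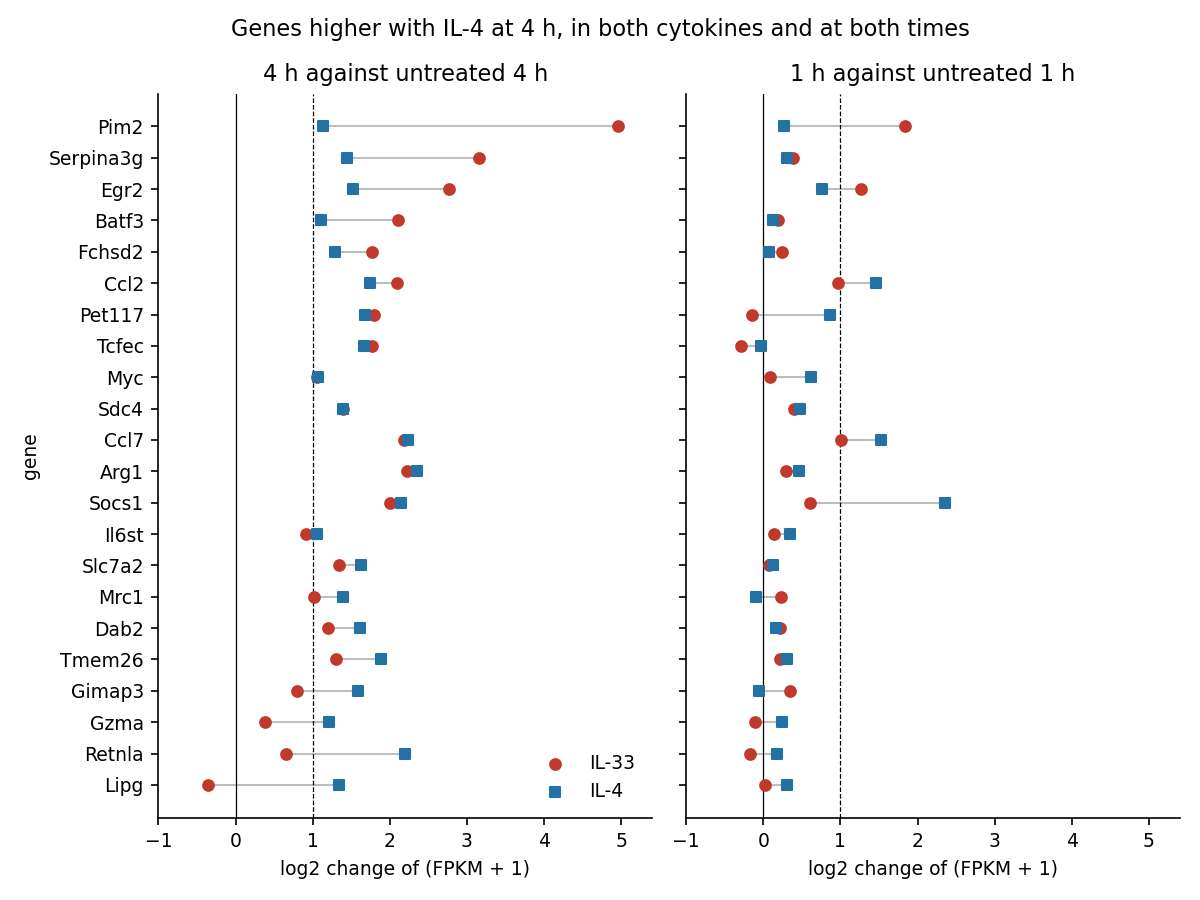
Log2 changes with IL-33 (circles) and IL-4 (squares) against the untreated library of the same time, at 4 h on the left and 1 h on the right, for the 22 genes higher with IL-4 at 4 h that reached 5 FPKM, the pseudogene Pisd-ps1 left out. At 4 h circle and square lie together for genes such as Arg1 (2.22 with IL-33 and 2.35 with IL-4) and far apart for Pim2 (4.96 and 1.13) and Retnla (0.65 and 2.20), and at 1 h Socs1 has 0.60 with IL-33 and 2.35 with IL-4.

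Of 41 IL-4/STAT6 response genes compared, 20 were higher with IL-33, 17 with IL-4 and 14 with both. Over all genes these shares were 3.66%, 0.295% and 0.194%. The list was chosen with earlier results of these data known, so its counts are no independent support. By the difference, 7 of the 41 were higher and 2 lower, against 3.31% and 0.831% of all genes, with a median of -0.03. The 2 lower were Retnla and Cdh1, the adhesion protein E-cadherin. Cdh1 had 2.48 FPKM with IL-33 against 5.70 untreated, and 9.83 with IL-4 against 6.02 untreated, so that neither change reached 1 while the difference was -1.57. Such genes numbered 16 among those lower by the difference. The limits themselves require that their IL-4 change is above 0 and their IL-33 change below 0. Il2rb, a receptor chain for IL-2 and IL-15, was another, with 2.02 FPKM with IL-33 against 2.88 untreated, and 5.66 with IL-4 against 3.04 untreated. Il2rg, the common gamma chain that also serves IL-4, rose with IL-33 only, with 182 FPKM with IL-33 against 38.8 untreated, and 43.6 with IL-4 against 41.0 untreated.

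The genes of the cytokines and receptors under study were measured too. The protein-coding Il4 transcript (NM_021283) had 14.8 FPKM with IL-33 against 2.78 untreated, and 1.76 with IL-4 against 2.93 untreated, a difference of 2.58. A non-coding entry of the same locus (NR_027491) had 89.5 FPKM with IL-33 against 80.1 untreated, and 80.2 with IL-4 against 84.5 untreated. The sum of both entries, which the class counts used, differed by 0.42, so the gene as a sum was called with neither cytokine. How reads were shared between these overlapping entries was not tested. At 1 h the coding transcript had 29.2 FPKM with IL-33 against 4.33 untreated, and 4.69 with IL-4 against 4.59 untreated. Il1rl1 had 103 FPKM with IL-33 against 63.9 untreated, and 72.9 with IL-4 against 67.4 untreated. Il4ra had 12.9 FPKM with IL-33 against 8.35 untreated, and 9.52 with IL-4 against 8.82 untreated, so that neither receptor gene passed the limit with either cytokine.

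Genes lower with IL-33 only had a median change of -1.25 with IL-33 and -0.03 with IL-4. Fbxo31, a subunit of a ubiquitin ligase that acts on cell cycle proteins, had 2.41 FPKM with IL-33 against 11.7 untreated, and 11.5 with IL-4 against 12.4 untreated, a difference of -1.81. Pik3ip1, an inhibitor of PI3-kinase, had 5.43 FPKM with IL-33 against 23.1 untreated, and 22.2 with IL-4 against 24.4 untreated. Cpeb1, a protein that controls mRNA polyadenylation, had 3.68 FPKM with IL-33 against 16.6 untreated, and 15.5 with IL-4 against 17.5 untreated. In these genes the IL-33 library stood alone below the others. Tob1, an antiproliferative protein, had 20.8 FPKM with IL-33 against 51.0 untreated, and 59.6 with IL-4 against 53.8 untreated. Ltb4r1, a leukotriene B4 receptor, had 66.4 FPKM with IL-33 against 157 untreated, and 150 with IL-4 against 165 untreated. Ltc4s, the leukotriene C4 synthase of eosinophils, was low in every library, with 0.671 FPKM with IL-33 against 2.38 untreated, a change of -1.01. With IL-4 it had 3.10 FPKM against 2.51 untreated. Of 26 eicosanoid enzyme and receptor genes compared, 3 were higher by the difference and 2 lower, against 3.31% and 0.831% of all genes. Sytl1, at a difference of -1.01, stood just inside the limit, with 25.7 FPKM with IL-33 against 59.2 untreated, and 55.5 with IL-4 against 62.4 untreated. Against the untreated library of 1 h, 20 of the 72 genes were lower with IL-33 only, compared with 263 of the 333 that were higher with IL-33 only.

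Over all genes 3.31% were higher by the difference and 0.831% lower, the shares beside which the small counts in the lists below stand. A count of 0 lower in lists of this size lies near its share. Of 41 cell cycle and DNA replication genes, 0 passed the limit by the difference in either direction. Their median difference was -0.41, the lowest of the 23 gene lists. Of 41 interferon-stimulated genes, 3 were higher by the difference, Cxcl10, Gbp2 and Gbp3, and 0 lower, with a median of -0.07. Of 31 genes of antigen presentation and costimulation, 4 were higher and 0 lower. They were the costimulatory or inhibitory ligands Cd80, Pdcd1lg2, Icosl and Cd274, for example Cd274, which encodes PD-L1, with 69.2 FPKM with IL-33 against 27.5 untreated, and 35.2 with IL-4 against 29.0 untreated. Of 33 JAK-STAT genes, 5 were higher by the difference, among them Tyk2, a kinase of several cytokine receptors, with 51.4 FPKM with IL-33 against 19.1 untreated, and 19.4 with IL-4 against 20.2 untreated. Of 34 genes of the IL-33 receptor and MyD88 pathway, 4 were higher, among them Map3k8, a kinase upstream of ERK, with 11.4 FPKM with IL-33 against 1.06 untreated, and 1.03 with IL-4 against 1.11 untreated. Of 36 unfolded protein response and amino acid stress genes, 2 were higher, including Phgdh, the entry enzyme of serine synthesis, with 34.7 FPKM with IL-33 against 5.03 untreated, and 5.39 with IL-4 against 5.31 untreated.

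**Figure D4:**
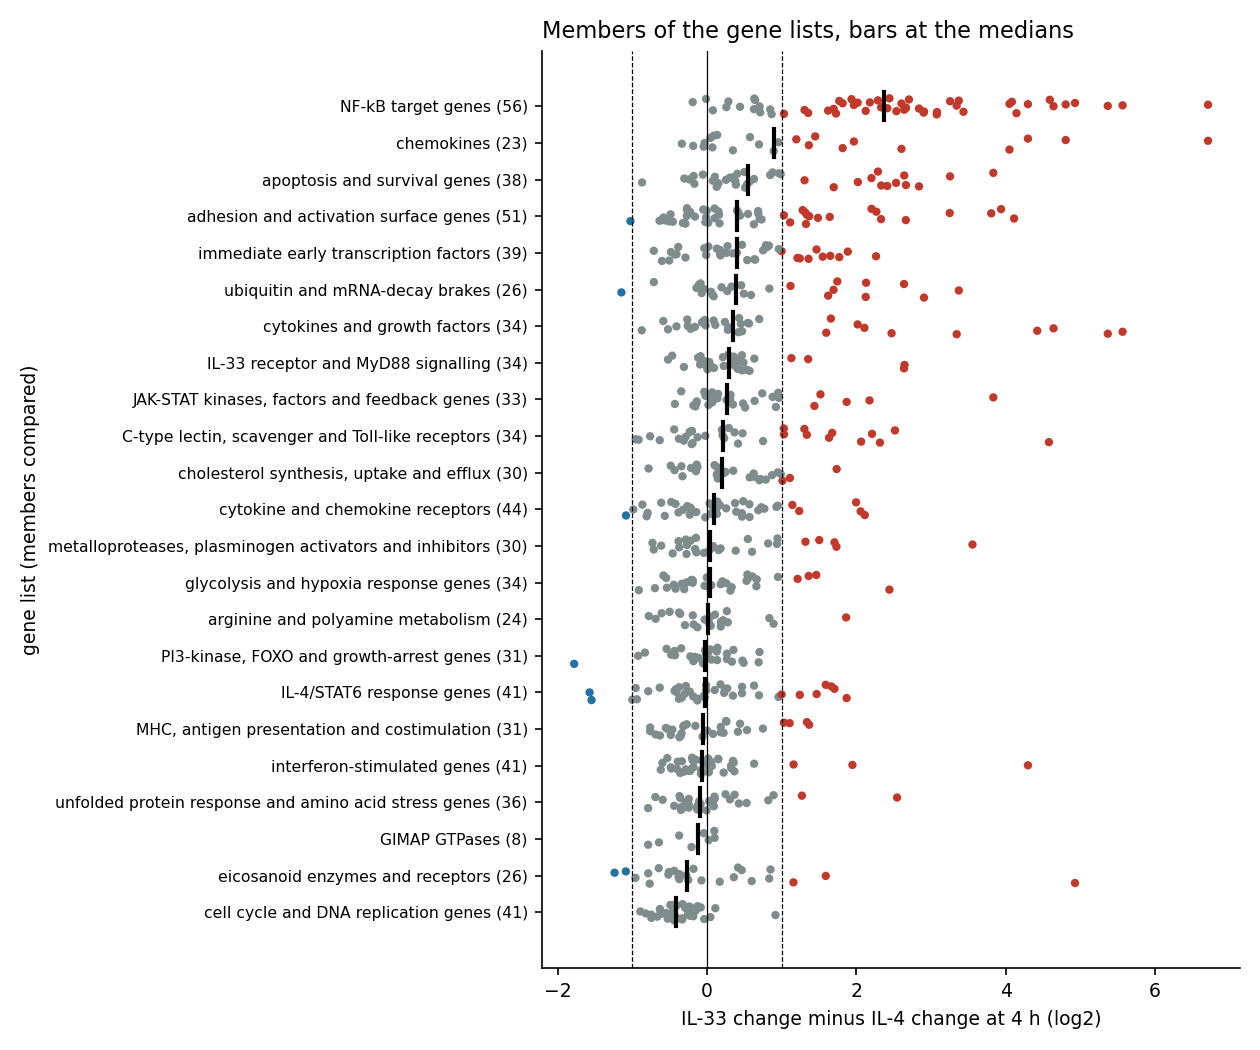
Each point is a member of one of the 23 gene lists, placed by its IL-33 change minus its IL-4 change at 4 h in log2 units, red at 1 or more and blue at -1 or less, with black bars at the list medians and members compared in brackets. NF-kB targets lie highest with a median of 2.37, followed by chemokines at 0.89, and cell cycle genes lowest at -0.41. Some genes stand in several lists.

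The libraries of 1 h, which the 4 h comparison did not use, were read the same way. Of the 333 genes higher with IL-33 only at 4 h, 308 could be compared at 1 h, and 118 or 38.3% were higher by the difference there, against 1.98% of all genes. None of the 308 was lower at 1 h, against 0.311% of all genes, a share at which few or none would be met. Across 10451 longer genes compared at both times, the differences had a Pearson correlation of 0.56, which describes genes and not replicates. Of 71 genes lower with IL-33 only at 4 h, 4 or 5.63% were lower by the difference at 1 h, against 0.311% of all genes. Frat1, a regulator of Wnt signalling, was one of them, with -1.37 at 4 h and -1.63 at 1 h. Tnf and Nfkbiz had larger differences at 1 h, of 5.42 and 6.01, than at 4 h, of 4.64 and 4.14. Il1b, Cxcl3 and Peg10 had larger differences at 4 h, of 5.37, 4.80 and 4.70, than at 1 h, of 2.40, 2.27 and 1.45.

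A late set differed by at least 2 at 4 h and by under 0.3 in size at 1 h. It held 16 genes, and its members were chosen by these values. Ikbke, a kinase of the innate interferon response, had 60.6 FPKM with IL-33 against 3.65 untreated, and 3.38 with IL-4 against 3.85 untreated at 4 h. At 1 h it had 3.82 FPKM with IL-33 against 3.33 untreated, and 3.53 with IL-4 against 3.52 untreated. Pou2f2, a transcription factor of B cells, had 22.7 FPKM with IL-33 against 0.882 untreated, and 0.680 with IL-4 against 0.931 untreated at 4 h. Its level with IL-33 at 1 h was 0.580 FPKM. Other members were Slc11a1, a metal transporter of phagocytes, Chi3l1, a chitinase-like protein, Bmf, a pro-apoptotic BCL2 family member, and Penk, which encodes the enkephalin precursor. Of the 16 genes, Pou2f2, Vash1, Bmf and Penk were under 1 FPKM in the libraries of 1 h, where the pseudocount keeps any change small.

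**Figure D5:**
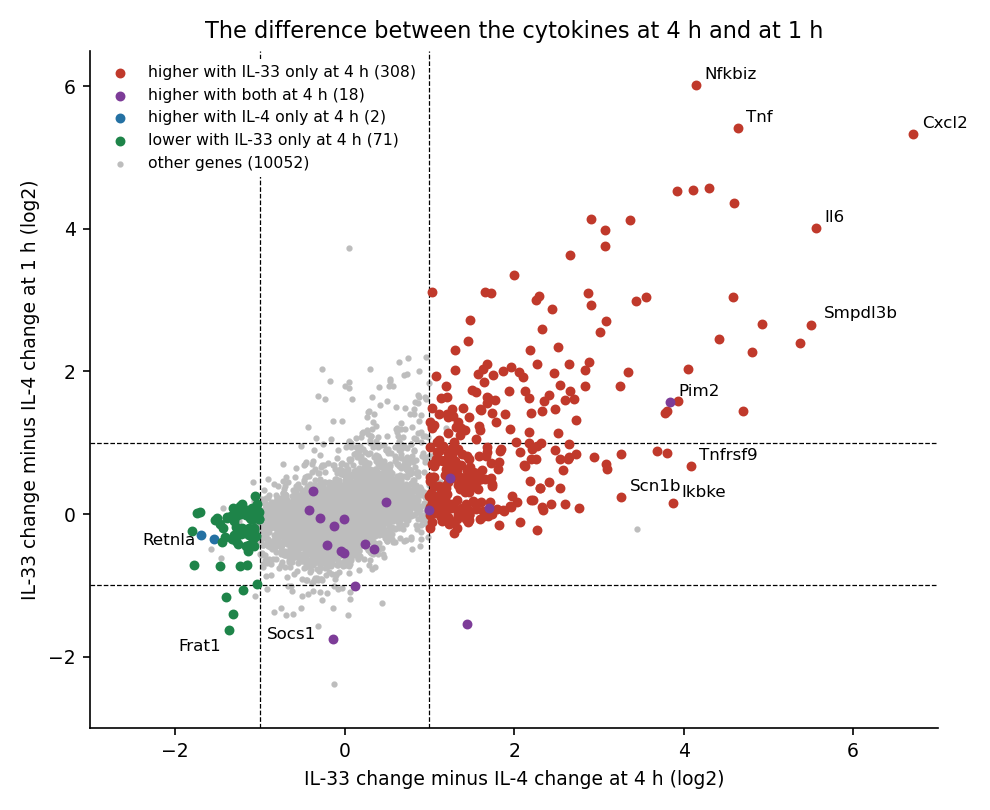
Each point is a gene compared at both times, with the IL-33 change minus the IL-4 change at 4 h on the horizontal and at 1 h on the vertical axis, coloured by its class at 4 h. Genes such as Nfkbiz (4.14 at 4 h and 6.01 at 1 h) lie high at both times, Ikbke (3.88 and 0.15) lies on the level of 0 at 1 h, and Socs1 lies below -1 at 1 h only.

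Of the genes higher with both at 4 h, 18 were compared at 1 h. Among these, 1 was higher by the difference, Pim2, and 3 were lower, Socs1, Pet117 and the pseudogene Pisd-ps1, against 1.98% and 0.311% of all genes. Pet117 lay close to the limit, at -1.01. With IL-33, 3 of the 18 were already called higher at 1 h, Pim2, Egr2 and Ccl7, against 1.96% of all genes. With IL-4, 3 of the 18 were, Socs1, Ccl2 and Ccl7, against 0.104% of all genes. Socs1 had 4.54 FPKM with IL-33 against 2.65 untreated, and 18.4 with IL-4 against 2.80 untreated at 1 h, so it was high with IL-4 alone at 1 h and with both cytokines at 4 h. Ccl7 at 1 h had 39.9 FPKM with IL-33 against 19.3 untreated, and 60.7 with IL-4 against 20.4 untreated. Arg1 at 1 h had 1.73 FPKM with IL-33 against 1.23 untreated, and 2.18 with IL-4 against 1.30 untreated, which is near the untreated level with either cytokine.

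Motif matches were counted in the promoters of each class. The NF-kB consensus, searched on both strands, was present in 46 of 326 RefSeq promoters of genes higher with IL-33 only, or 14.1%, against 526 of 9821 promoters of all genes compared, or 5.36%. It was present in 2 of 19 promoters of genes higher with both, or 10.5%, and in 0 of 68 of genes lower with IL-33 only. The STAT6 spacing, TTC and GAA with 4 bases between, was present in 6.13% of the promoters of genes higher with IL-33 only, in 1 of 19 of genes higher with both, in 6 of 68 or 8.82% of genes lower with IL-33 only and in 5.47% of all. TTCNNNGAA, the spacing of other STAT factors, was present in 9.20% of the promoters of genes higher with IL-33 only, in 4 of 19 or 21.1% of genes higher with both, in 5 of 68 or 7.35% of genes lower with IL-33 only and in 7.09% of all. Promoters were found for 243 of the 333 genes, 13 of the 21 and 50 of the 72, and a gene can have several. NF-kB matches overlapped the STAT6 spacing in 4 promoters and TTCNNNGAA in 7. A match describes letters within 300 bases and is not a measured binding site.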

How the data were processed

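Total RNA libraries were single-read Illumina, per the labels' protocols. Reads were aligned with TopHat 1.4.1 to mm9, and Cuffdiff 1.2.1 gave the levels, per the submitters' processing notes. The authors deposited FPKM for 28702 RefSeq transcripts in 4 tables, normalised separately, each pairing 1 treated library with the untreated one of that time. Their p-values compare 2 libraries and were not used. The sources used here give no read totals, so depth is known only relative to the untreated library: 1.88 for IL-33 and 1.24 for IL-4 at 4 h, from the commonest ratio among transcripts under 0.08 FPKM. Precision follows depth, and low values were least precise in the untreated library. Libraries were assigned by table name. Among genes with 1 transcript, the log2 fold changes in the authors' deposited list matched their namesake table for 100%, within 0.01, and any other table for at most 1.63%.

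Transcripts were summed per symbol, and changes were computed with a pseudocount of 1 FPKM (Python 3.11.15, pandas 2.3.3). An FPKM of 0 can be a failed estimate and is called listed at 0. Class steps were tested on simulated data. The members and the 23 gene lists and 7 marker lists were chosen with earlier results of these data known. Genes were named by rule: at 5 FPKM or more, the 15 largest differences in each direction, up to 12 genes per class, up to 6 per list and a fixed set. Genes given as examples of the late set, of a threshold, of the untreated library's effect or of the classes favouring IL-4, and those that make up short counts, were chosen after their values were seen. Alternatives changed the pseudocount, filter, transcript choice, scaling, control and threshold.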

Additional observations from a re-analysis of the deposited data

Results flagged for a closer look

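Pisd-ps1, a transcribed pseudogene copy of Pisd whose reads can be shared with its parent, differed between the cytokines in opposite directions at the 2 times. At 4 h it had 22.4 FPKM with IL-33, 7.65 with IL-4 and 0.00262 untreated, a difference of 1.44. At 1 h it had 11.4 FPKM with IL-33, 37.3 with IL-4 and 20.0 untreated, a difference of -1.55. With 1 library per group, the difference between the times was not tested. Untreated values are those of the IL-4 tables.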

How the results depend on the processing

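The counts below include small RNA genes. With them 402 genes were higher and 118 lower by the difference, 360 higher with IL-33 only, 11 with IL-4 only, 46 with both and 80 lower with IL-33 only. With a pseudocount of 0.1 FPKM, 296 were lower by the difference, 28 higher with IL-4 only, 72 with both and 197 lower with IL-33 only. With 5 FPKM, 47 were lower by the difference, 29 higher with both and 25 lower with IL-33 only. With the untreated library of 1 h as control, 26 were higher with IL-4 only and 26 lower with IL-33 only. With a threshold of 1.5, 218 were higher and 35 lower by the difference, 192 higher with IL-33 only, 29 with both and 12 lower with IL-33 only. Without small RNA genes, 2 were higher with IL-4 only and 21 with both. For a higher threshold and for leaving genes out, the lower counts follow from the setting itself, and for the others the cause was not tested. Of 107 named genes called by the difference, 20 left the threshold with 5 FPKM and 0 with a pseudocount of 0.1, another transcript choice, 1 scale for the tables or centring. They were named largely by the size of their difference, so their counts say little about called genes nearer the limit. The untreated library nearly cancels from the difference, so exchanging it says nothing about these genes. The classes do depend on it: against the untreated library of 1 h, 263 of 333 longer genes stayed higher with IL-33 only, 13 of 21 with both, 1 of 2 with IL-4 only and 20 of 72 lower with IL-33 only. With separate untreated libraries, chosen after seeing the data, 16 or 17 of the longer genes were higher with both. No paired analysis was possible because each group had 1 library. Depth limits low genes most, and the untreated library was the shallowest of 4 h.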

Other observations

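Rpl26, a ribosomal protein gene with many pseudogene copies, was the only longer gene lower with IL-4 only. It had 9.43 FPKM with IL-33 against 12.2 untreated, and was listed at 0 with IL-4 against 12.9 untreated. Tgtp1, an interferon-inducible GTPase gene with a near-identical copy, had 2.93 FPKM with IL-33, 3.54 with IL-4 and 0.000209 untreated at 4 h, while the untreated library of 1 h had 2.45.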
